A study of Mus musculus with 9 samples.

Results

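The circadian clock genes examined here are 10 genes of the cell-autonomous daily oscillator, chosen by name: Clock, Arntl (also called Bmal1), Per1, Per2, Per3, Cry1, Cry2, Nr1d1, Nr1d2 and Dbp. Each matched 1 of the 52636 Ensembl mouse genes of the count table, and all 10 passed the filter on low counts that left 39210 genes for testing. They were measured by RNA sequencing in 9 libraries of cells from the nucleus accumbens, a part of the ventral striatum that takes part in reward, of male C57BL/6 mice housed under a 12-h light and 12-h dark cycle. Cells of dissociated punches were sorted for ChAT, which synthesises acetylcholine, by a fluorescent antibody, to collect cholinergic interneurons, the large local neurons of the striatum that release acetylcholine.

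The groups were 3 libraries from drug-naive mice (titled WT), 3 titled RES and 3 titled SUS, with no genetic alteration named for any group. Mice of RES and SUS had taken cocaine by nosepoke, first under fixed ratio (at most 40 infusions) and later for 10 days of progressive ratio, 23 h a day at 1.2 mg/kg per infusion, and their tissue dates from day 3 after that. The behavioural phenotype field contradicts the titles RES and SUS; the titles are used and no difference is read as susceptibility or resilience. Each condition pooled punches from 2 to 3 mice, and nothing says whether each library had its own pool, so p-values measure only the spread between libraries, which may be technical. The age of the mice and the hour of day at which tissue was taken are not given in the sources used here. Whether the groups were taken at the same hour therefore cannot be told apart from the treatment for genes that cycle daily.

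In the mammalian clock the proteins CLOCK and ARNTL pair on DNA and switch on the Per and Cry genes, whose products return to the nucleus and inhibit that pair, closing a loop of about a day. In an interlocked loop, NR1D1 and NR1D2 repress Arntl while ROR receptors activate it. DBP binds D-box elements and carries the rhythm to other genes, and Per1 in particular also responds to neuronal activity and glucocorticoids through other elements. In the striatum clock genes cycle over the day, and they have been studied in responses to cocaine in rodents.

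The stretches of promoter shown next were searched for the DNA elements through which the loops are known to act. Windows of 300 bases, from 250 before to 50 after a RefSeq transcript start (GRCm38.p6), were found for 9 of the 10 genes (13 windows, none for Per2). Both strands were searched for the E-box CACGTG bound by the CLOCK and ARNTL pair, the D-box TTATGNAA, the core TAGGTCA bound by ROR and NR1D receptors, and the core TGACG of the cAMP response element. Capitals mark the matches, and the 4 windows were chosen because they hold at least 1 of the first 3 motifs.
Arntl, chr7:113207261-113207560, plus strand: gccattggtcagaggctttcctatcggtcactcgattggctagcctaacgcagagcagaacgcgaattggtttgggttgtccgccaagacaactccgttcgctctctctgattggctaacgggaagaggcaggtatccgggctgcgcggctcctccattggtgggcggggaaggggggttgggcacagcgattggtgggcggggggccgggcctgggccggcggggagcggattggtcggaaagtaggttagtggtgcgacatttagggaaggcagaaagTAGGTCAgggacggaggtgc
Per1, chr11:69098699-69098998, plus strand: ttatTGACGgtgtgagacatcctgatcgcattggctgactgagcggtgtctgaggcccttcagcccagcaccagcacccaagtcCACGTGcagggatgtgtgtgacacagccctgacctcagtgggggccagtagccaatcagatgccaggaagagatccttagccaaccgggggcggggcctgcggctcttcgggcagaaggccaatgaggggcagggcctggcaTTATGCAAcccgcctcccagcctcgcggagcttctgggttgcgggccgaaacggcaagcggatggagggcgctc
Per3, chr4:151044616-151044915, minus strand: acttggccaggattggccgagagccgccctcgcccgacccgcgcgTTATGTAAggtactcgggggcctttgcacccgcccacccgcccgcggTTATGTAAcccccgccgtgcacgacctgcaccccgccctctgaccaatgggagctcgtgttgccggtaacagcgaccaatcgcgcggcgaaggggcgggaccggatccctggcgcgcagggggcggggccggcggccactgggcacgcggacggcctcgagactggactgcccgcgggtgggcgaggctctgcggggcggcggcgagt
Cry1, chr10:85185005-85185304, minus strand: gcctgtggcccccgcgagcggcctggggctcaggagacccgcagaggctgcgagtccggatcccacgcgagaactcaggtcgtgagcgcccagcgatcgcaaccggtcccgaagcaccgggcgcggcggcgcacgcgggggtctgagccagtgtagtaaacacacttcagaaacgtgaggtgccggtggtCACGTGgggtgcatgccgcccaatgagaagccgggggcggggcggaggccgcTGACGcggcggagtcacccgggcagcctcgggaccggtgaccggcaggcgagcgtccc

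The E-box was present in 2 of the 13 member windows, of Per1 and Cry1, against 7.15% of all 32851 RefSeq windows. The D-box was present in 2 of 13, of Per1 and, at 2 places, of Per3 (3.38% of all windows). The ROR core was present in 1 of 13, of Arntl (2.61%). The cAMP response core was present in 4 of 13, of Per1, Cry1 and Cry2 (20.8% of all windows). Elements outside these windows, or with letters other than those given, were not searched for. These matches describe letters in a window and are not measured binding sites.

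Total counts ran from 4471675 to 11155730 per library, and the members had 81 (Cry1, naive replicate 2) to 1160 (Per3, naive replicate 3) counts each. Levels are given as counts scaled to library size with trimmed mean of M values factors (CPM), or, between genes, as counts per exonic kb divided by those of 1134 olfactory receptor genes, which accumbens cells are not known to use (times background). The density of 295 vomeronasal receptor genes was lower, at 1.65 to 5.90 counts per kb against 6.07 to 21.2 for the olfactory genes. Multiples of that lower density would be larger, so times background holds for the olfactory set only. Cholinergic identity genes, the markers the sort should enrich, were as a set near the olfactory background. Their median over 10 genes was 1.00 to 2.07 times in the 9 libraries. Chat, the gene of the sorted protein, reached 7.86 times in SUS replicate 2 (663 counts, 73.5 CPM). In every other library Chat lay below 3 times. Medium spiny neuron genes (12 genes) had a median of 2.65 to 9.62 times background, astrocyte genes (10) 3.25 to 16.6 and microglial genes (10) 1.98 to 78.2. In such mixed material fewer cells of a type and less RNA per cell cannot be told apart.

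Among the 10 genes, Per1 was the most abundant per exonic length and Clock the least, and 8 of 10 averaged more than 3 times background. Per1 averaged 8.44 ± 3.38 times background (SD, n = 9 libraries), Cry2 6.02 ± 2.52, Per2 5.83 ± 2.74, Per3 4.92 ± 2.57, Nr1d1 4.33 ± 2.25, Dbp 3.56 ± 1.5, Arntl 3.51 ± 0.909 and Nr1d2 3.40 ± 1.44. Cry1 (2.95 ± 0.648) and Clock (2.84 ± 0.717) lay below 3 times on average. Per1 exceeded Cry2, the next in order by CPM per exonic kb, in 9 of 9 libraries, and Per2 exceeded Per3 in 9 of 9. Neighbours that did not separate were Cry2 over Per2 (5 of 9 libraries), Dbp over Arntl (3 of 9), Nr1d2 over Cry1 (4 of 9) and Cry1 over Clock (5 of 9). All 10 genes exceeded 3 times background in naive replicate 2 and RES replicate 2, but only 2 did in RES replicate 3 (Per1 and Cry2) and 2 in SUS replicate 3 (Per1 and Cry2).

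**Figure D1:**
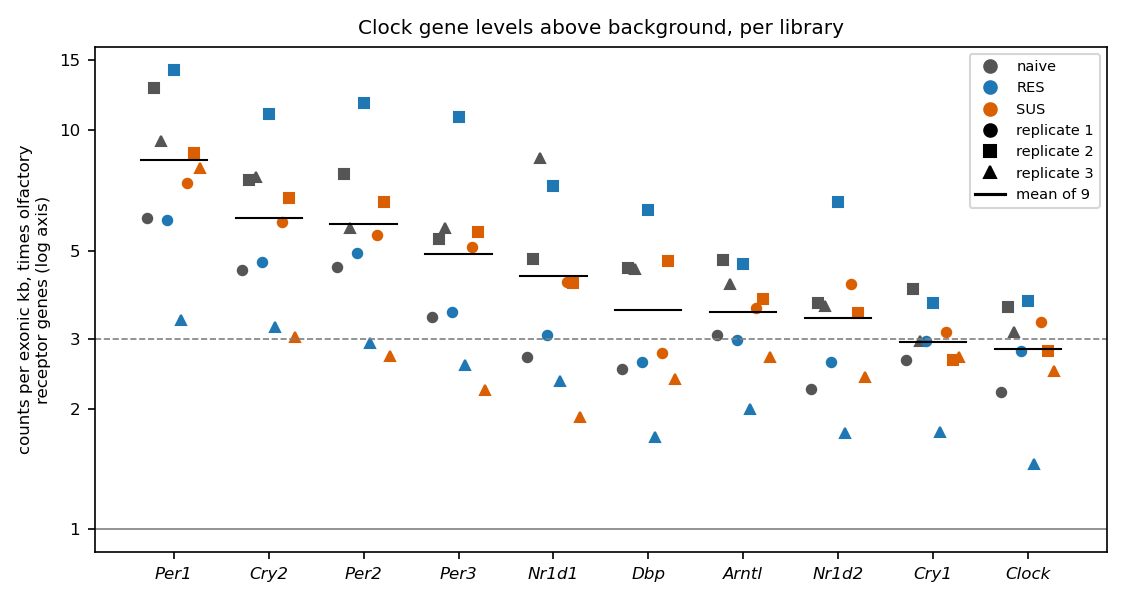
Counts per exonic kb of each clock gene divided by those of olfactory receptor genes, on a log axis, with 1 point per library (colour for group, symbol for replicate), black bars for the mean of 9 libraries, a solid line at 1 and a dashed line at 3. Per1 lies above 3 in all 9 libraries, whereas Clock exceeds 3 in 4 and Cry1 in 3.

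The comparison of RES and SUS with drug-naive libraries, and of RES with SUS, asked whether the clock genes differed after cocaine self-administration and between its 2 outcome groups. None of the 10 genes passed the test in any comparison, no member separated any pair of groups completely, and for each of the 10 the SD within RES was larger than any difference between group means. All values below come from the edgeR quasi-likelihood test with Benjamini-Hochberg adjustment over all 39210 genes.

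Of the activators, Clock (ENSMUSG00000029238, chromosome 5, 76209868 to 76304792, GRCm38, protein-coding, as are all 10) encodes the DNA-binding partner of ARNTL. Clock was at 66.1, 90.7 and 84.2 CPM in naive replicates 1 to 3, while RES libraries had 84.7, 88.1 and 45.8 and SUS libraries 88.5, 76.4 and 77.4. RES replicate 3 stood below the other 8 libraries, which overlapped between groups. The log2 fold change of Clock was -0.14 (SE 0.324) for RES against naive and 0.01 (SE 0.323) for SUS against naive.

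Arntl (ENSMUSG00000055116, chromosome 7, 113207465 to 113314126) encodes the other partner. It was at 50.4, 65.3 and 60.9 CPM in naive, while RES libraries had 49.4, 59.9 and 34.5 and SUS libraries 52.6, 56.5 and 45.9. RES replicate 3 was again lowest, and RES replicate 2 lay within the naive range. Arntl had the smallest p among members for RES against naive, with a log2 fold change of -0.30 (SE 0.286, unadjusted p = 0.315, edgeR adjusted p = 1). For SUS against naive the log2 fold change was -0.19 (SE 0.285).

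Of the repressors, Per1 (ENSMUSG00000020893, chromosome 11, 69095217 to 69109960) was at 74.2, 132 and 104 CPM in naive, while RES libraries had 74.3, 137 and 43.2 and SUS libraries 80.8, 98.6 and 102. Its lowest and highest libraries both belonged to RES. The log2 fold change of Per1 was -0.28 (SE 0.402) for RES against naive, -0.14 (SE 0.4) for SUS against naive and 0.15 (SE 0.401) for SUS against RES.

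Per2 (ENSMUSG00000055866, chromosome 1, 91415982 to 91459324), whose product is a core partner of the CRY proteins, was at 57.9, 83.7 and 65.5 CPM in naive, while RES libraries had 63.6, 118 and 39.4 and SUS libraries 62.5, 77 and 35.9. RES replicate 2 was above and SUS replicate 3 below all other libraries. Against naive the log2 fold change was 0.09 (SE 0.4) in RES and -0.24 (SE 0.399) in SUS. Per2 had the smallest p among members for SUS against RES (log2 fold change -0.33, SE 0.399, unadjusted p = 0.42, edgeR adjusted p = 0.971), with RES at 73.7 ± 40.3 CPM (SD, n = 3) and SUS at 58.5 ± 20.9 CPM (n = 3).

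Per3 (ENSMUSG00000028957, chromosome 4, 151003652 to 151044665) is the least essential of the Per genes for the loop in mice. It was at 71.1, 94.3 and 107 CPM in naive, while RES libraries had 74.5, 178 and 56.7 and SUS libraries 95.3, 106 and 48.5. The highest library, RES replicate 2, was 3.68 times the lowest, SUS replicate 3, the second widest range of the 10 genes after Nr1d1. Group means were 90.9 ± 18.4 CPM in naive, 103 ± 65.8 in RES and 83.4 ± 30.7 in SUS (SD, n = 3 each). The log2 fold change of Per3 was 0.18 (SE 0.436) for RES against naive, -0.12 (SE 0.435) for SUS against naive and -0.31 (SE 0.436) for SUS against RES.

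Cry1 (ENSMUSG00000020038, chromosome 10, 85131700 to 85185064) and Cry2 encode the strongest inhibitors of the CLOCK and ARNTL pair. Cry1 was at 19.3, 24.5 and 19.4 CPM in naive, while RES libraries had 21.9, 21.3 and 13.4 and SUS libraries 20.4, 17.6 and 20.4. Its highest library was 1.83 times its lowest, the narrowest range of the 10 genes.

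Cry2 (ENSMUSG00000068742, chromosome 2, 92403646 to 92434043) was at 61.3, 87.4 and 94.8 CPM in naive, while RES libraries had 65.4, 119 and 46.6 and SUS libraries 72.6, 85.0 and 43.4. Its pattern over libraries followed that of Per2 and Per3, with RES replicate 2 highest and SUS replicate 3 lowest. Log2 fold changes against naive were -0.16 (SE 0.243) in RES and -0.11 (SE 0.24) in SUS for Cry1, and -0.08 (SE 0.385) and -0.28 (SE 0.385) for Cry2. For SUS against RES they were 0.05 (SE 0.24) for Cry1 and -0.20 (SE 0.385) for Cry2.

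Of the nuclear receptors that repress Arntl, Nr1d1 (ENSMUSG00000020889, chromosome 11, 98767932 to 98775333), also called Rev-erb alpha, was at 18.1, 26.9 and 51.4 CPM in naive, while RES libraries had 20.9, 38.4 and 16.6 and SUS libraries 25.0, 25.4 and 13.3. Naive replicate 3 held the highest value, and the other 2 naive libraries lay within the range of the cocaine groups. Nr1d1 had the smallest p among members for SUS against naive (log2 fold change -0.61, SE 0.394, 95% confidence interval -1.45 to 0.23, unadjusted p = 0.143, edgeR adjusted p = 1). The value was -0.07 without naive replicate 3 and -0.90 without naive replicate 1, the latter with an unadjusted edgeR p of 0.0437 and no call after adjustment. For RES against naive it was -0.36 (SE 0.395) and turned to 0.17 without naive replicate 3.

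Nr1d2 (ENSMUSG00000021775, chromosome 14, 18204054 to 18239127) was at 26.4, 36.6 and 38.6 CPM in naive, while RES libraries had 31.4, 61.4 and 21.6 and SUS libraries 43.4, 37.5 and 29.4. It was the only member with a fold change above 0 in both groups against naive, 0.17 (SE 0.346) in RES and 0.12 (SE 0.344) in SUS on the log2 scale, both smaller than their standard errors and both below 0 when RES replicate 2 (-0.34, RES) or naive replicate 1 (-0.03, SUS) was left out.

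The output gene Dbp (ENSMUSG00000059824, chromosome 7, 45705088 to 45710203), among the genes with the widest daily swing in many tissues, was at 16.4, 24.8 and 26.4 CPM in naive, while RES libraries had 17.4, 32.4 and 11.7 and SUS libraries 16.1, 28.0 and 16.1. RES held both the highest and the lowest library, and the groups overlapped. The log2 fold change of Dbp was -0.15 (SE 0.351) for RES against naive, -0.16 (SE 0.347) for SUS against naive and -0.01 (SE 0.349) for SUS against RES. Of its exonic bases, 18.0% overlap exons of Sphk2 on the other strand, and 8.55% of those of Nr1d1 overlap Thra. As the strand setting of the counting is not given in the sources used here, reads there cannot be assigned to 1 gene with certainty.

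**Figure D2:**
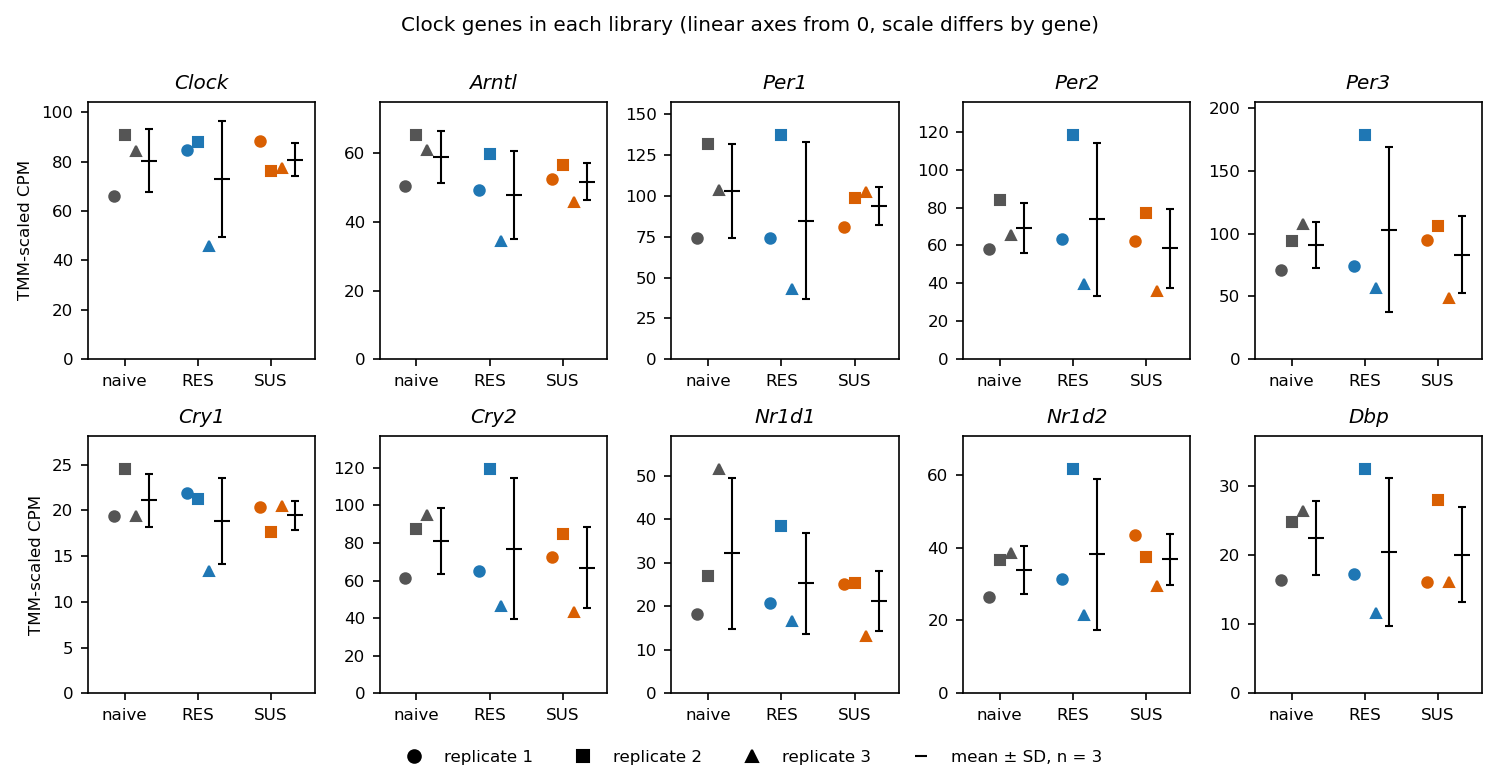
TMM-scaled CPM of each of the 10 clock genes (1 panel each, linear axis from 0) in 3 naive, 3 RES and 3 SUS libraries, with the replicate number as symbol and the group mean ± SD beside the points. In each panel the groups overlap, and for 9 of the 10 genes, Nr1d1 being the exception, RES replicate 2 is the highest of the 9 libraries, RES replicate 3 the lowest, or both.

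For RES against naive, 0 of 10 members were called by edgeR (background over all genes 0%), 0 had an unadjusted p under 0.05 (background 0.921%), and 0 had libraries that did not overlap (background 3.31% higher and 2.82% lower). Of the 10, 3 had fold changes above 0 and 7 below, with a median of -0.14 against -0.02 over all genes, of which 52.6% were below 0. For SUS against naive the counts were again 0 (background 0% called, 3.12% at an unadjusted p under 0.05, 3.85% not overlapping and higher, 4.15% lower), with 8 of 10 below 0 and a median of -0.15 against 0.02 over all genes, of which 47.8% were below 0. These comparisons share the 3 naive libraries.

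For SUS against RES, 0 members were called (background 0%), 0 had an unadjusted p under 0.05 (5.68%) and 0 did not overlap (3.41% higher, 4.22% lower), with 4 of 10 above 0 and a median of -0.03 against 0.01 over all genes. For the 6 cocaine libraries against the 3 naive ones, 0 were called (background 0%), 0 had an unadjusted p under 0.05 (1.38%) and 0 did not overlap (0.617% higher, 0.553% lower), with 8 of 10 below 0 and a median of -0.14 against 0.01 over all genes. Nr1d1 had the most negative value there, -0.48 (SE 0.335), with 32.2 ± 17.3 CPM in naive (SD, n = 3) and 23.3 ± 8.80 in cocaine (n = 6), and it turned to 0.05 without naive replicate 3. By DESeq2 and by limma-voom the number called was also 0 of 10 in each of the 4 comparisons, with 0 at an unadjusted p under 0.05. Over the 9 libraries the members varied together, with a Pearson r of 0.27 to 0.97 between pairs. Counts of signs among the 10 are therefore not independent outcomes in any comparison.

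Differences of moderate size lay within the error. Over the 3 pairwise comparisons, 95% confidence intervals of the log2 fold change reached from -1.45 (Nr1d1, SUS against naive) to 1.11 (Per3, RES against naive). They were narrowest for Cry1, at -0.68 to 0.36 for RES against naive, -0.62 to 0.41 for SUS against naive and -0.46 to 0.56 for SUS against RES. A p above the threshold with 3 libraries a group does not show equal levels.

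**Figure D3:**
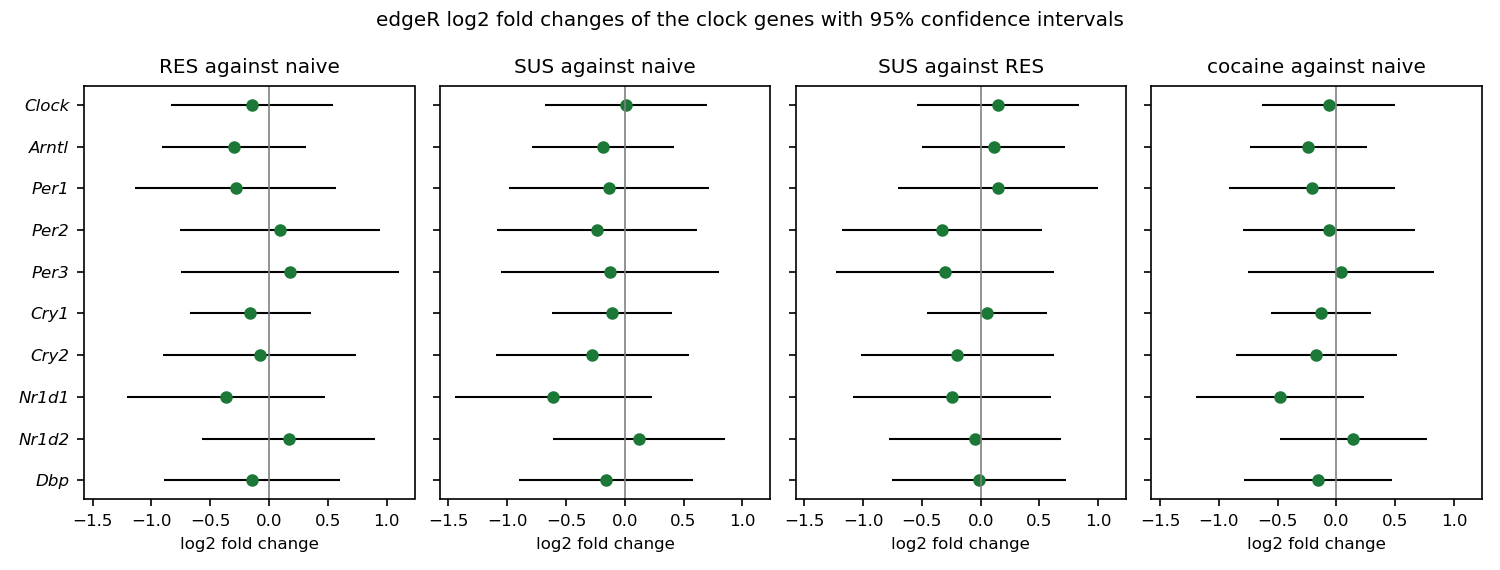
Log2 fold changes of the 10 clock genes from edgeR (points) with 95% confidence intervals (lines) in 4 comparisons. Each interval includes 0, the lowest bound being -1.45 for Nr1d1 in SUS against naive and the highest 1.11 for Per3 in RES against naive.

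Arntl peaks in many tissues at the opposite time of day to Dbp, the Per genes and Nr1d1, and a ratio within a library does not depend on the scaling between libraries. The log2 ratio of Dbp to Arntl in counts per exonic kb was -0.29, -0.07 and 0.12 in naive replicates 1 to 3, -0.18, 0.44 and -0.23 in RES, and -0.38, 0.32 and -0.18 in SUS. Group means differed by less than the spread within groups, at -0.08 ± 0.21 in naive, 0.01 ± 0.38 in RES and -0.08 ± 0.36 in SUS (SD, n = 3 each). The log2 ratio of Per2 to Arntl averaged 0.58 ± 0.13, 0.87 ± 0.41 and 0.47 ± 0.42 in the same order, with its highest value in RES replicate 2 (1.34) and its lowest in SUS replicate 3 (0.01). The log2 ratio of Per1 to Arntl averaged 1.20 ± 0.23, 1.12 ± 0.45 and 1.28 ± 0.27. For Nr1d1 to Arntl the mean was 0.29 ± 0.66 in naive, where replicate 3 had 1.05, 0.31 ± 0.31 in RES and -0.05 ± 0.39 in SUS.

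The extreme values of the 10 genes were concentrated in a few libraries. RES replicate 2 held the highest value of 6 members and naive replicate 2 of 3, while RES replicate 3 held the lowest of 6 and SUS replicate 3 the lowest of 4. Members of both arms of the loop moved the same way: in RES replicate 3 each of the 10 was below its mean over the 9 libraries, from -0.53 for Nr1d1 to -1.04 for Per1 in log2 CPM. In RES replicate 2 each was above it, from 0.12 for Cry1 to 1.04 for Per3. The share of all genes below or above their means in these libraries was not counted. The mean log2 CPM of 35 other clock genes was also lowest in RES replicate 3 (4.86). In RES replicate 2 it was 5.64, below naive replicate 2 (5.67). In SUS replicate 3, Nr1d1 (-0.85), Per3 (-0.83), Per2 (-0.81) and Cry2 (-0.72) were lower while Per1 (0.19), Cry1 (0.06) and Clock (0.02) were not.

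Other gene lists also differed in these libraries, some in the same direction as the clock genes and some in the opposite one. The summed level of 10 pan-neuronal genes was highest in RES replicate 2 (1067 CPM) and SUS replicate 2 (1055) and lowest in RES replicate 3 (429) and SUS replicate 3 (453), and ran from 571 to 947 in naive, 429 to 1067 in RES and 453 to 1055 in SUS. That of 12 medium spiny neuron genes ran from 968 to 1663 CPM in naive, 564 to 1967 in RES and 524 to 1948 in SUS, lowest in SUS replicate 3 and RES replicate 3 and high in both RES replicate 2 (1967) and SUS replicate 2 (1948). By median times background SUS replicate 2 (9.62) was above RES replicate 2 (8.97). The 10 astrocyte genes summed to 4159 CPM at most and 836 at least, both in RES, and the 10 microglial genes to 224 to 2633 in naive, 88.9 to 1396 in RES and 193 to 4674 in SUS. The density of olfactory receptor genes was 6.07 to 21.2 counts per kb, not divided by library size. Relative to total counts that density was highest in RES replicate 3, at 17.6 counts per kb on 4913649 counts. Naive replicate 2 had 6.07 on 4471675 counts, and naive replicate 3 had 21.2 on 10667056. RES replicate 3 also had the largest scaling factor (1.58). In RES replicate 2, where all 10 clock genes were above their means, 5 of the 8 other lists were below theirs, at -2.98 for microglia, -0.70 for immediate early genes, -0.42 for endothelial and mural, -0.28 for oligodendrocyte lineage and -0.08 for cholinergic genes (mean log2 CPM). The astrocyte (0.85), medium spiny neuron (0.71) and pan-neuronal (0.35) lists were above theirs. In SUS replicate 3 the microglial list was at 2.74. In RES replicate 3, where all 10 clock genes were below, each of the 8 other lists except the cholinergic one (0.25) was also below its mean. Values there were -2.32 for microglia, -1.36 for immediate early genes, -1.07 for oligodendrocyte lineage and -0.94 for astrocytes. Medium spiny neuron genes were at -0.80, pan-neuronal genes at -0.54 and endothelial and mural genes at -0.46. The part of cell makeup and background in the values of the clock genes was not tested.

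**Figure D4:**
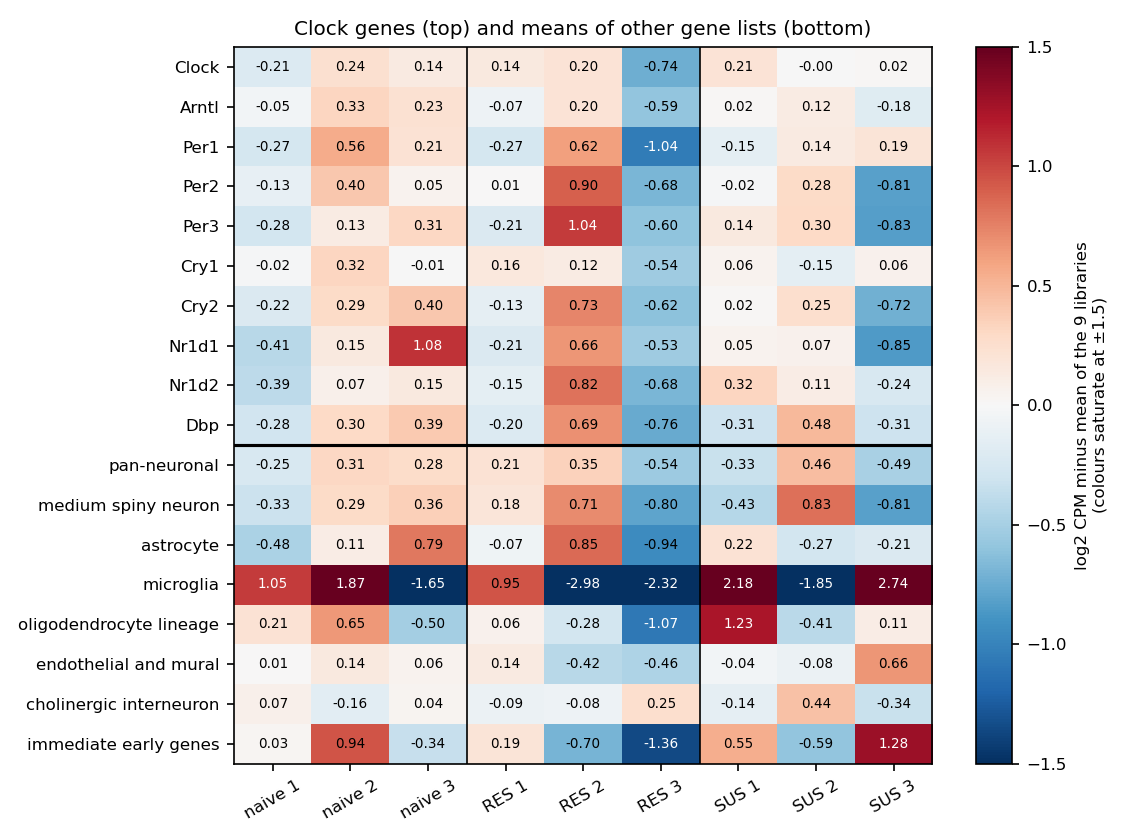
Log2 CPM of each clock gene (top rows) and mean log2 CPM of 8 gene lists (bottom rows) minus their mean over the 9 libraries, with the value printed in each cell and colours saturating at ±1.5. RES replicate 2 is above 0 and RES replicate 3 below 0 for all 10 clock genes, and the pan-neuronal, medium spiny neuron and astrocyte lists have the same signs there. The other 5 lists are below 0 in RES replicate 2 (microglia at -2.98), and in RES replicate 3 only the cholinergic list is above 0 (0.25).

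Per3, Cry2 and Per2 were the most alike of the members, with Pearson r over the 9 libraries of 0.97 for Per3 and Cry2, 0.95 for Per2 and Cry2 and 0.94 for Per2 and Per3 (log2 CPM). Cry1 and Nr1d1 were the least alike, at 0.27. Clock and Arntl, partners in 1 complex, had 0.86. These values describe 9 libraries that also differed in the cell type lists and in background density. The part of those differences in the correlations was not tested.

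For the 8 members above 3 times background, the genes of most similar pattern over the 9 libraries were sought among 13039 protein-coding genes of at least 10 CPM. For Per1 they were Zfp516 (r = 0.97), Elp5 (0.97) and Map2k2 (0.97), a kinase of the MAPK cascade. For Per2 they were Btbd6 (0.98), Ccdc84 (0.98) and Nsun7 (0.98), and for Per3 4930402H24Rik (0.98), Dennd1a (0.98) and Abca3 (0.98). Cry2 was closest to Prrt1 (0.99), which encodes a protein associated with AMPA receptors, Sun1 (0.99) and Ctnnd2 (0.99), a catenin of neuronal junctions. Arntl was closest to Tbkbp1 (0.99), Ptov1 (0.98) and the DNA methyltransferase Dnmt3a (0.98). Nr1d1 was closest to Znrf3 (0.99), Pick1 (0.96) and Aph1b (0.96), Nr1d2 to Bbs2 (0.98), Fbh1 (0.98) and Cdip1 (0.98), and Dbp to Kctd1 (0.99), Ripor1 (0.98) and the lipid kinase Pi4ka (0.98). Some of these genes were themselves near background, with Aph1b at 1.23, Cdip1 at 1.27 and Znrf3 at 2.06 times on average. None of these genes was on the lists of 10 and 35 clock genes. Those lists are so small beside 13039 genes that this outcome says little about the members.

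Per1 shares inducing signals with activity-induced genes, whose values are set beside it here without a test. Fos, a transcription factor switched on by neuronal activity, was at 63.5, 144 and 35.7 CPM in naive, while RES libraries had 70.8, 26.0 and 17.6 and SUS libraries 122, 27.7 and 229. In RES replicate 2, where Per1 was highest, Fos was second lowest, but the neuronal activity genes Npas4 (87.6 CPM) and Arc (71.5 CPM) were at their highest of the 9 libraries. Over the 19 immediate early genes, Npas4 and Arc included, the mean log2 CPM in that library was low, at -0.70 from its mean over libraries. Egr1 ranged from 24.1 CPM in RES replicate 3 to 760 in SUS replicate 3, and Nr4a1 from 17.4 to 106 in the same libraries. Of the glucocorticoid-induced genes, Fkbp5 ran from 24.8 to 52.8 CPM, Sgk1 from 33.4 to 99.5 and Tsc22d3 from 10.5 to 34.7, while Nfkbia, which also answers inflammatory signals, ran from 9.88 in RES replicate 2 to 323 in SUS replicate 3. The mean of 19 immediate early genes was highest in SUS replicate 3 (1.28 above its mean over libraries in log2 CPM), naive replicate 2 (0.94) and SUS replicate 1 (0.55), which were also the highest for the microglial list (2.74, 1.87 and 2.18). The part of microglial RNA in these values was not tested. Npas4, Arc and Nfkbia were chosen after their values were seen.

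Among 35 further genes of the clock pathway, 0 were called in any comparison by edgeR. For RES against naive 12 of 35 were above 0 and 23 below, for SUS against naive 18 and 17, for SUS against RES 21 and 14, and for cocaine against naive 13 and 22, with medians of -0.07, 0.02, 0.11 and -0.02 on the log2 scale. Over all genes 52.6%, 47.8%, 48.8% and 48.6% were below 0 in the same order, with medians of -0.02, 0.02, 0.01 and 0.01. Only Ciart, a repressor of the CLOCK and ARNTL pair also called CHRONO, had an unadjusted p under 0.05, in 2 comparisons, 1 of 35 against 0.921% of all genes for RES against naive and 1 of 35 against 5.68% for SUS against RES. Ciart was at 11.5, 19.9 and 12.2 CPM in naive, while RES libraries had 8.76, 11.6 and 8.32 and SUS libraries 13.8, 17.3 and 15.8. Every SUS library was above every RES library, and the naive libraries overlapped both groups. Its log2 fold change was 0.72 (SE 0.255, unadjusted p = 0.013, edgeR adjusted p = 0.87) for SUS against RES and -0.58 (SE 0.26, unadjusted p = 0.0413, adjusted p = 1) for RES against naive. Ciart rested on 50 to 156 counts and averaged 2.92 times background. It was the only gene of the 35 that did not overlap in that comparison (3.41% of all genes higher). Its value for SUS against RES stayed between 0.62 and 0.85 with any 1 library left out, whereas that for RES against naive ran from -0.73 to -0.31, the latter without naive replicate 2.

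For SUS against RES the casein kinases Csnk1d and Csnk1e, which phosphorylate PER proteins, had log2 fold changes of 0.65 (SE 0.358) and 0.54 (SE 0.307). Npas2, a partner of ARNTL that can stand in for CLOCK in the forebrain, had -0.23 (SE 0.405), and it averaged 7.11 times background against 2.84 for Clock, above Clock in each of the 9 libraries on that scale. That scale divides by exonic length, 4791 bases for Npas2 and 13727 for Clock. In CPM the group means were higher for Clock, at 80.3 against 70.6 in naive, 72.8 against 70.8 in RES and 80.7 against 60.4 in SUS. For SUS against RES, Tef and Hlf, relatives of Dbp, had log2 fold changes of -0.06 (SE 0.436) and -0.24 (SE 0.354), and Nfil3, which competes with them at D-boxes, 0.21 (SE 0.222). The E-box repressors Bhlhe40 and Bhlhe41 had 0.07 (SE 0.292) and 0.13 (SE 0.323), and the receptors Rora and Rorb, activators of Arntl, -0.04 (SE 0.331) and -0.28 (SE 0.34). The smallest p for SUS against naive was that of Tipin (log2 fold change 0.31, SE 0.281, unadjusted p = 0.293, edgeR adjusted p = 1) and for cocaine against naive that of Bhlhe40 (-0.31, SE 0.242, unadjusted p = 0.221, edgeR adjusted p = 1). Tef reached 178 CPM in RES replicate 2 and 53.1 in RES replicate 3, the same ends as Dbp.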

How the data were processed

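The authors deposited raw counts per Ensembl gene, whole numbers in 9 columns matched to libraries by title. Per the submitters' processing notes, FastQC, STAR 2.5.2b, HTSeq, DESeq, DESeq2 and GRCm38 were used; their roles, the strand setting and the annotation release are not given in the sources used here. GENCODE M21 gave symbols, positions and exonic lengths (52489 of 52636 IDs). After filterByExpr and TMM scaling, edgeR 4.0.16 (quasi-likelihood test) was run in R 4.3.3 (limma 3.58.1), threshold 0.05, in 1 model of 3 groups, and a model of 2 groups for cocaine against naive. DESeq2 1.42.0 and limma-voom with sample weights, other scalings and filters, and leaving out libraries were alternatives. The test was tried on simulated counts. Background is the count density of protein-coding olfactory receptor genes. Log2 CPM used a prior count of 2. Named genes were all members, 11 fixed clock genes, the gene of smallest p per comparison in the list of 35, 6 activity or glucocorticoid genes, and the 3 genes of highest correlation with each member above 3 times background. Sequences are RefSeq's (GRCm38.p6). No libraries were identical (Spearman correlations 0.864 to 0.961). The members and lists were chosen with earlier results of these data known.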

Additional observations from a re-analysis of the deposited data

Results flagged for a closer look

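In the 6 cocaine libraries, the 10 members and 11 further clock genes were checked for a library far from the rest, as groups of 3 are too small for this check, and chance marks about 1 in 20 groups. Clock in RES replicate 3 was at 45.8 CPM, with the next lowest library at 76.4, a gap of 0.717 of the whole range. Hlf in RES replicate 2 was at 68.3 CPM with the next highest at 40.9, a gap of 0.702 of the range. For the same genes the values without those libraries stand with the other fold changes: Clock for RES against naive was 0.11 without RES replicate 3, and Hlf for SUS against RES was 0.19 without RES replicate 2.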

How the results depend on the processing

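In all 4 comparisons edgeR called 0 genes under every setting run, and so did DESeq2 and limma-voom, and no member passed the adjusted threshold under any of them (the fewest genes at an unadjusted p under 0.05 in the main test being 361 for RES against naive). What moved was the sign of some fold changes, and the cause was not tested. With the replicate block, log2 fold changes that turned were Per2 -0.0448 and Per3 -0.0072 for RES against naive, Nr1d2 0.0409, Dbp 0.0139 and Tef 0.015 for SUS against RES and Per3 -0.11 for cocaine against naive. With limma-voom, log2 fold changes that turned were Per3 -0.0266 for RES against naive, Per3 0.0016 for SUS against naive and Per3 0.0282, Cry1 -0.0469, Nr1d1 0.0208 and Nr1d2 0.22 for SUS against RES. With upper quartile scaling, log2 fold changes that turned were Clock -0.0197 for SUS against naive and Cry1 -0.0365 and Bhlhe40 -0.0092 for SUS against RES. With both RES 3 and SUS 3 dropped (an alternative added after the data were seen), log2 fold changes that turned were Clock 0.0984, Per1 0.0283, Cry1 0.0378, Cry2 0.18 and Dbp 0.13 for RES against naive, Per2 0.0169 and Per3 0.15 for SUS against naive, Clock -0.0586, Per1 -0.23, Cry1 -0.18 and Bhlhe41 -0.0004 for SUS against RES and Clock 0.0705, Per2 0.22, Cry2 0.073 and Dbp 0.0555 for cocaine against naive. With 1 library left out, fold changes that took both signs for RES against naive ran from -0.29 to 0.11 for Clock, -0.80 to 0.0384 for Per1, -0.41 to 0.40 for Per2, -0.46 to 0.48 for Per3, -0.27 to 0.0461 for Cry1, -0.52 to 0.19 for Cry2, -0.77 to 0.17 for Nr1d1, -0.34 to 0.45 for Nr1d2 and -0.62 to 0.14 for Dbp. With 1 library left out, fold changes that took both signs for SUS against naive ran from -0.12 to 0.0991 for Clock, -0.33 to 0.0729 for Per1, -0.49 to 0.0165 for Per2, -0.34 to 0.15 for Per3, -0.17 to 0.0017 for Cry1 and -0.0346 to 0.26 for Nr1d2. With 1 library left out, fold changes that took both signs for SUS against RES ran from -0.0993 to 0.29 for Clock, -0.0823 to 0.29 for Arntl, -0.17 to 0.66 for Per1, -0.64 to 0.17 for Per2, -0.60 to 0.33 for Per3, -0.15 to 0.16 for Cry1, -0.46 to 0.24 for Cry2, -0.48 to 0.17 for Nr1d1, -0.34 to 0.46 for Nr1d2, -0.33 to 0.45 for Dbp, -0.69 to 0.16 for Npas2, -0.39 to 0.48 for Tef, -0.47 to 0.19 for Hlf, -0.11 to 0.30 for Bhlhe40, -0.11 to 0.48 for Bhlhe41, -0.30 to 0.24 for Rora and -0.50 to 0.067 for Rorb. With 1 library left out, fold changes that took both signs for cocaine against naive ran from -0.19 to 0.0451 for Clock, -0.40 to 0.0062 for Per1, -0.30 to 0.0981 for Per2, -0.25 to 0.17 for Per3, -0.77 to 0.0536 for Nr1d1 and -0.0435 to 0.26 for Nr1d2. Nr1d1 had an unadjusted edgeR p under 0.05 without naive replicate 1 (0.0437 for SUS against naive, 0.0460 for cocaine against naive) and without RES replicate 2 (0.0476 for cocaine against naive), with no call after adjustment. The number of members above 3 times background, 8, was 3 at a threshold of 5 times. Same-numbered libraries of different groups had correlations of their deviations from -0.17 to 0.17, not all above 0.1, and not every library correlated best with its own number (naive 1 did with RES 3, at 0.30), so the titles' numbers were not taken to pair libraries, and the block changed no call. Low counts and 3 libraries a group limit the precision to the intervals given above.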
